A study of Mus musculus with 3 samples.

Results

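The genes described here are products of the lung epithelium: the surfactant protein genes Sftpa1, Sftpb, Sftpc and Sftpd, the secretoglobin genes Scgb1a1, Scgb3a1 and Scgb3a2, and the surface protein genes Epcam, Ager and Cldn18. They were taken by gene symbol from the annotation of a mouse whole genome array. Of the 10 genes 9 were measured, out of 19087 genes on the array, and Scgb3a2 was not analysed here. The arrays held RNA of lung macrophages (lung Mϕ), lung dendritic cells (lung DC) and peripheral blood monocytes (PBMo) from untreated wild-type C57BL/6N mice, male and female, 6 to 9 weeks old. Lung Mϕ and lung DC were sorted from perfused, collagenase-digested lung as CD11c-positive cells of high and of low autofluorescence, and PBMo were sorted from blood as cells of low side scatter with CD11b and CD115. RNA of 4 mice made up a pool, and 32 mice gave 8 pools of each cell type and 12 hybridizations, 4 for every pair of cell types. The sample labels call the macrophages alveolar, while the methods sorted them from homogenate of the whole lung.

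The alveolus is lined by flat type I cells, across which gas is exchanged, and by cuboidal type II cells, which make surfactant, a film of lipid and protein that keeps the airspace open. Surfactant proteins B and C are small hydrophobic proteins that spread the lipid film, and surfactant proteins A and D are collectins, soluble lectins that bind microbes. Club cells of the airways secrete secretoglobins. Alveolar macrophages live on the surface of this epithelium, where they take up and break down used surfactant, whereas monocytes circulate in blood.

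Each gene was described by 3 ratios. The Mϕ/PBMo ratio and the DC/PBMo ratio set a lung population against blood monocytes, the Mϕ/DC ratio set the lung populations against each other, and all are given as log2, so that 1 is a 2-fold higher level in the cell type on top. The Mϕ/PBMo ratio minus the DC/PBMo ratio equalled the Mϕ/DC ratio in every spot, and each ratio was 1 fitted value without its replicates. No test was therefore possible, the spread between pools is not known here, and a gene is called higher or lower below when its ratio was above 1 or under -1. The median SD between probes of a transcript was taken over 217 transcripts with at least 8 probes. It was 0.05 for Mϕ/PBMo, 0.05 for DC/PBMo and 0.0566 for Mϕ/DC, a spread of spots and not of mice. The 2 probes of Sftpa1 lay much further apart, at 0.14 and 1.76 for Mϕ/PBMo. Defining markers mostly followed the labels. The Mϕ/PBMo ratio was above 1 for 12 of 12 alveolar macrophage markers and under -1 for 9 of 10 blood monocyte markers, and the DC/PBMo ratio was above 1 for 10 of 15 dendritic cell markers. The DC/PBMo ratio was above 1 for 8 of 12 alveolar macrophage markers as well, and under -1 for only 4 of 10 blood monocyte markers. The Mϕ/PBMo ratio was above 1 for 3 of 15 dendritic cell markers.

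Sftpc, Sftpd, Scgb1a1 and Epcam had more than 2-fold more transcript in both sorted lung populations than in blood monocytes. Sftpa1 did so in 1 of its 2 probes, and Sftpb, Scgb3a1, Ager and Cldn18 stayed within 2-fold. Each gene but Sftpa1 was read by 1 probe. The Mϕ/PBMo ratio was above 1 for 4 of the 9 genes, against 5.47% of all genes, and the DC/PBMo ratio for 5 of the 9, against 4.02% of all genes. None of the 9 was under -1, against 4.49% of all genes for Mϕ/PBMo and 1.09% for DC/PBMo. The Mϕ/DC ratio of all 9 stayed within 2-fold, with 2.74% of all genes higher and 4.52% lower. The medians of the 9 genes were 0.95 for Mϕ/PBMo, 1.04 for DC/PBMo and 0.05 for Mϕ/DC, while those of all genes were 0.0022, 0.0027 and 0.0026. The gene at the median in both comparisons with PBMo was Sftpa1, whose probes disagreed. All 9 genes lay above 0 in both, from 0.12 to 3.16 for Mϕ/PBMo and from 0.05 to 3.65 for DC/PBMo. As RNA of whole populations was measured, a few cells rich in a transcript and many cells with little of it cannot be told apart.

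**Figure D1:**
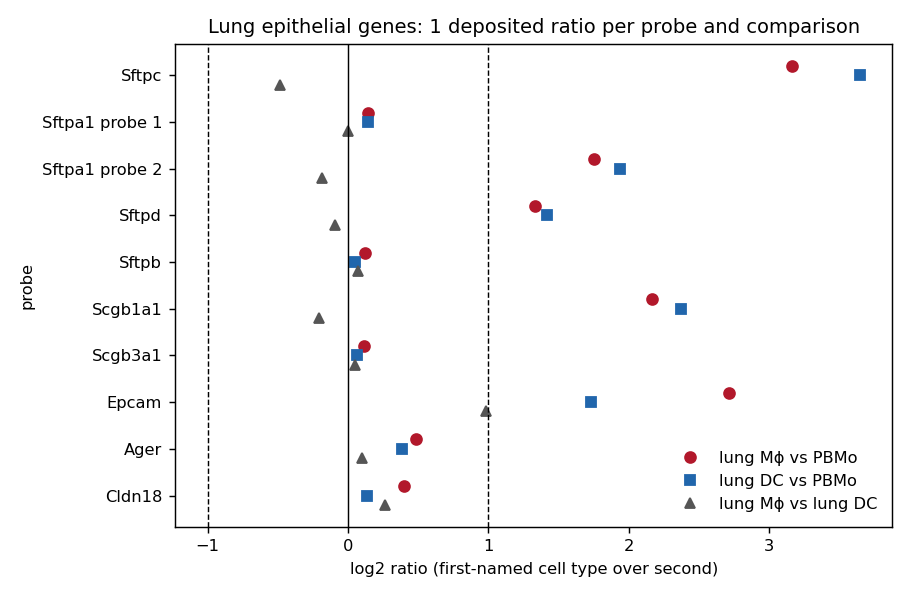
Log2 ratio (horizontal axis) of each probe of the 9 measured lung epithelial genes (vertical axis) for Mϕ/PBMo (circles), DC/PBMo (squares) and Mϕ/DC (triangles); dashed lines mark 2-fold, and each point is a single deposited value without an error. Sftpc reached 3.16 for Mϕ/PBMo and 3.65 for DC/PBMo, Sftpb and Scgb3a1 stayed near 0, and Epcam had the highest Mϕ/DC ratio, 0.98.

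Sftpc, which encodes the hydrophobic surfactant protein C and defines type II cells, had the largest ratios of the group. Its Mϕ/PBMo ratio was 3.16, an 8.96-fold higher level in lung Mϕ, and its DC/PBMo ratio was 3.65, a 12.5-fold higher level in lung DC. Of all genes, 91 had a higher Mϕ/PBMo ratio and 31 a higher DC/PBMo ratio. Its Mϕ/DC ratio of -0.48 was the lowest of the 9 genes. The order of its levels was lung DC, lung Mϕ, PBMo, with the lung populations within 2-fold of each other.

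The collectins followed at smaller ratios. Sftpd, which encodes surfactant protein D, had a Mϕ/PBMo ratio of 1.33, a DC/PBMo ratio of 1.42 and a Mϕ/DC ratio of -0.09. Its level was thus 2.52-fold above PBMo in lung Mϕ and 2.68-fold in lung DC, and 687 genes had a higher Mϕ/PBMo and 411 a higher DC/PBMo ratio. Sftpa1, which encodes surfactant protein A, was read by 2 probes of the same transcript that disagreed. One probe had 1.76 for Mϕ/PBMo, 1.94 for DC/PBMo and -0.18 for Mϕ/DC, which is 3.38-fold and 3.84-fold above PBMo in lung Mϕ and in lung DC. The other probe of Sftpa1 had 0.14, 0.14 and 0.00094. The mean of the probes of Sftpa1, 0.95 for Mϕ/PBMo and 1.04 for DC/PBMo, falls on either side of the limit and describes neither probe, so that its call in lung DC alone rests on a gap of 0.09. In the RefSeq annotation Sftpa1 and Sftpd lie on chromosome 14 with 1 protein-coding gene between them. This gene, Mbl1, encodes a collectin secreted by the liver, and its ratios were -0.06 for Mϕ/PBMo and 0.01 for DC/PBMo.

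Sftpb, which encodes surfactant protein B and is likewise made in quantity by type II cells, did not go with Sftpc. Its ratios, from 1 probe, were 0.12 for Mϕ/PBMo, 0.05 for DC/PBMo and 0.07 for Mϕ/DC. A ratio near 0 arises from equal levels as well as from a spot without signal in either sample, and spot intensities were not analysed here.

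The start regions of Sftpa1, Sftpb and Epcam are shown because these genes fell on different sides of the 2-fold limit, Sftpb near 0, Epcam past it and Sftpa1 past it in 1 of its probes. Each window runs from 250 bases before to 50 bases after the gene start in RefSeq on build GRCm38.p6, read 5′ to 3′ on the strand of the gene, the plus strand in each case. The windows are chr14:41131538-41131837 for Sftpa1, chr6:72304360-72304659 for Sftpb and chr17:87635729-87636028 for Epcam. Capitals mark exact matches to any of 4 motifs sought on both strands, the TATA box TATAAA, the NKX2 core CAAGTG, the FOXA core TGTTTAC and the core GAGGAAG of PU.1. PU.1 is a factor of myeloid cells, and NKX2 and FOXA factors act in lung epithelium.
Sftpa1: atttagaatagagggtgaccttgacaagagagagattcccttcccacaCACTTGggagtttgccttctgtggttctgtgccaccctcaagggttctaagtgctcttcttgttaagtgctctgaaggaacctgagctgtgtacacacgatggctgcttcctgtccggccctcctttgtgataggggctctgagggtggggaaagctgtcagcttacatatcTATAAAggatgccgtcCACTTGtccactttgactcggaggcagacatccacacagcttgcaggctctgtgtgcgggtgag
Sftpb: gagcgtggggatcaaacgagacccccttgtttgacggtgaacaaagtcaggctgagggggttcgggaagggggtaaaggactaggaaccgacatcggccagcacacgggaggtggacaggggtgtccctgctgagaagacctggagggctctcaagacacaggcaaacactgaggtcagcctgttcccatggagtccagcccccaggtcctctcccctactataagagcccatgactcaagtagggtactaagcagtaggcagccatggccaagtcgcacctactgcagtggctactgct
Epcam: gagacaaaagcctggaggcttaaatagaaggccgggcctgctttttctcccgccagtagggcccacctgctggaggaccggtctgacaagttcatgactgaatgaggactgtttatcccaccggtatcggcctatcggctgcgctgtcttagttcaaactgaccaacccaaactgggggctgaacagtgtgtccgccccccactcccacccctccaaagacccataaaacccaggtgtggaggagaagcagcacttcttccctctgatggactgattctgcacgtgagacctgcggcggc
The Sftpa1 window held the TATA box 30 bases before the gene start and the NKX2 core, on the opposite strand as CACTTG, 202 and 14 bases before it. The windows of Sftpb and Epcam held none of the motifs, and no match overlapped another. Of the 9 measured genes 6 had a window, those shown and Scgb3a1, Ager and Cldn18, while Sftpc, Sftpd and Scgb1a1 had none. Scgb3a1 and, in only 1 of its windows, Cldn18 also held the NKX2 core, and both genes were within 2-fold of PBMo. The window at another start of Cldn18 held none of the motifs. Scgb3a1 held the PU.1 core besides, and Ager held none of the motifs. Over 32851 windows of the same length, 13.6% held the TATA box, 13.6% the NKX2 core, 3.65% the FOXA core and 13.6% the PU.1 core. A match or its absence describes the letters of the window and says nothing of what binds there.

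Among the secretoglobins, Scgb1a1 was high in both lung populations and Scgb3a1 was near 0. Scgb1a1, the main secreted protein of club cells, had a Mϕ/PBMo ratio of 2.17, a DC/PBMo ratio of 2.37 and a Mϕ/DC ratio of -0.20. These are levels 4.50-fold and 5.18-fold above PBMo, and 267 and 137 genes had a higher ratio. Scgb3a1, another small secreted protein of the airways, had 0.12 for Mϕ/PBMo, 0.06 for DC/PBMo and 0.05 for Mϕ/DC. Cyp2f2, a cytochrome P450 of mouse club cells, was past the limit with Scgb1a1, at 1.51 for Mϕ/PBMo, 1.49 for DC/PBMo and 0.02 for Mϕ/DC.

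Of the surface proteins, Epcam was past 2-fold, and Ager and Cldn18 were not. Epcam encodes the epithelial cell adhesion molecule, which some dendritic cells such as Langerhans cells also carry. Its Mϕ/PBMo ratio was 2.71 and its DC/PBMo ratio 1.73, folds of 6.56 and 3.32. Of the members past 2-fold against PBMo it alone had a positive Mϕ/DC ratio, 0.98, a fold of 1.98 just short of the limit, and the order of its levels was lung Mϕ, lung DC, PBMo. Ager, the receptor for advanced glycation end products that type I cells hold in large amounts, had 0.49 for Mϕ/PBMo, 0.38 for DC/PBMo and 0.10 for Mϕ/DC. Cldn18, a tight junction protein of alveolar epithelium, had 0.40, 0.14 and 0.27. Both kept the order of Epcam, all within 2-fold.

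Most other epithelial genes were within 2-fold of PBMo, but the share past it on the higher side was above that of all genes. Of 58 genes on lists of type II, type I, club and goblet, ciliated and general epithelial genes, 7 had a Mϕ/PBMo ratio above 1, against 5.47% of all genes, and 3 were under -1. Of the same genes 9 had a DC/PBMo ratio above 1, against 4.02% of all genes, and 1 was under -1. The median was 0.05 in both. No other type II gene of 12 was higher in either. Napsa, an aspartic protease that processes surfactant protein B, had -2.68 for Mϕ/PBMo and -0.47 for DC/PBMo. Lpcat1, an enzyme of surfactant lipid synthesis, had -1.33 and 0.54. Abca3, the lipid pump of lamellar bodies, had -0.27 for Mϕ/PBMo and -0.16 for DC/PBMo, and Slc34a2, a phosphate transporter of type II cells, had 0.15 and 0.10. Of 12 other type I genes, 3 were higher and 1 lower for Mϕ/PBMo, and 4 were higher and 1 lower for DC/PBMo. Cav1, the main protein of caveolae and also abundant in endothelium, had 3.15 and 1.95, and Emp2, a membrane protein, had 2.06 and 2.45. Akap5, a scaffold of protein kinase A, had 2.54 and 1.01, and Hopx, a homeodomain protein that lymphocytes also express, had -2.69 and -1.59. Aqp5, the water channel of type I cells, stayed within 2-fold at 0.90 and 0.81.

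Of 12 other club and goblet genes only Cyp2f2 was past 2-fold against PBMo, and of 9 ciliated cell genes none was. Of 13 general epithelial genes 3 had a Mϕ/PBMo ratio above 1 and 4 a DC/PBMo ratio above 1, and none was lower. Krt19, a keratin of simple epithelia, had 5.56 for Mϕ/PBMo and 3.58 for DC/PBMo. Cdh1, the epithelial cadherin that mouse alveolar macrophages also express, had 3.20 and 1.79, and Spint1, an inhibitor of serine proteases, had 3.05 and 2.95. Cldn7, a claudin, had 0.92 and 1.20. The other keratins on the list were within 2-fold, Krt7 at -0.74 and -0.12, Krt8 at 0.51 and 0.61 and Krt18 at 0.60 and 0.76. None of 8 transcription factors of lung epithelium was past 2-fold. Among them Nkx2-1, a master regulator of surfactant genes, had 0.06 for Mϕ/PBMo and -0.02 for DC/PBMo, and Foxa2, which acts with it, had 0.29 and 0.18.

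**Figure D2:**
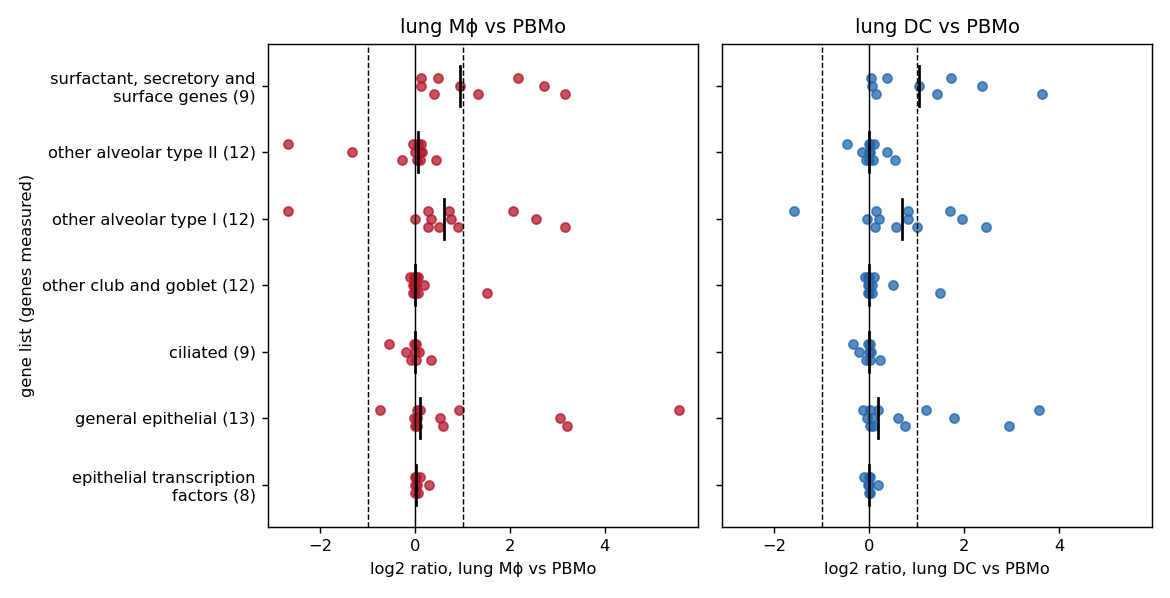
Log2 ratio (horizontal axis) of each measured gene (points, spread vertically for visibility) of the 9 genes described here, of 5 lists of other epithelial genes and of 8 epithelial transcription factors, for Mϕ/PBMo (left) and DC/PBMo (right); black bars are medians and dashed lines mark 2-fold. The 9 genes have medians of 0.95 and 1.04, and the other type II genes have medians of 0.05 and 0.01.

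Some genes of other lung cells were also higher in the sorted lung populations, and most were within 2-fold. Of 25 endothelial and fibroblast genes, 6 had a Mϕ/PBMo ratio above 1, against 5.47% of all genes, and 1 was under -1, with a median of 0.29. For DC/PBMo 7 were above 1, against 4.02% of all genes, and none was under -1, with a median of 0.51. Mgp, a matrix protein, had 2.41 for Mϕ/PBMo and 3.46 for DC/PBMo, Inmt, an amine methyltransferase abundant in lung, had 2.12 and 3.18, and Ramp2, a receptor component of endothelium, had 2.04 and 2.87. Dcn and Lum, small proteoglycans of fibroblasts, were at 0.17 and 0.14 for Mϕ/PBMo. Lung Mϕ and lung DC had passed a magnetic selection for CD11c and a flow sort. The study checked the purity of the sorted cells by flow cytometry and on stained cytospins. The part of epithelial or other lung cells in the ratios of the lung epithelial genes was not tested. The lung populations came from digested lung and PBMo from blood, so that cell type, tissue and preparation cannot be told apart.

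The members past 2-fold in both lung populations differed in how they stood between these populations. Of all genes, 423 had both a Mϕ/PBMo and a DC/PBMo ratio above 1, and their median Mϕ/DC ratio was 0.38, with the middle 50% between -0.13 and 1.21. Epcam, at 0.98, had a higher Mϕ/DC ratio than 292 of these genes, whereas Sftpd, at -0.09, exceeded 111, Scgb1a1, at -0.20, exceeded 90 and Sftpc, at -0.48, exceeded 61. The 8 alveolar macrophage markers among the 423 had Mϕ/DC ratios from 1.29 to 2.39, and the 5 endothelial and fibroblast genes had ratios from -1.06 to -0.15. Sftpc and Scgb1a1 fell within the range of these 5 genes, and Sftpd lay just above it. Over all 25 endothelial and fibroblast genes the range was wider, from -1.44 to 0.27, with 7 above 0. Epcam lay below the lowest of these 8 alveolar macrophage markers, Cd9, a tetraspanin, at 1.29. The alveolar macrophage markers outside the 423 were Pparg at 0.74, below Epcam, Fabp4 at 1.01, Fabp5 at 1.02 and Chil3 at 2.98. Other epithelial genes went both ways. Krt19 at 1.98, Akap5 at 1.53, Cdh1 at 1.41 and Cav1 at 1.20 were on the side of lung Mϕ, Spint1 at 0.10 and Cyp2f2 at 0.02 were near 0, and Emp2 was at -0.39. The 423 genes were taken by the same ratios, so that these positions are a description.

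**Figure D3:**
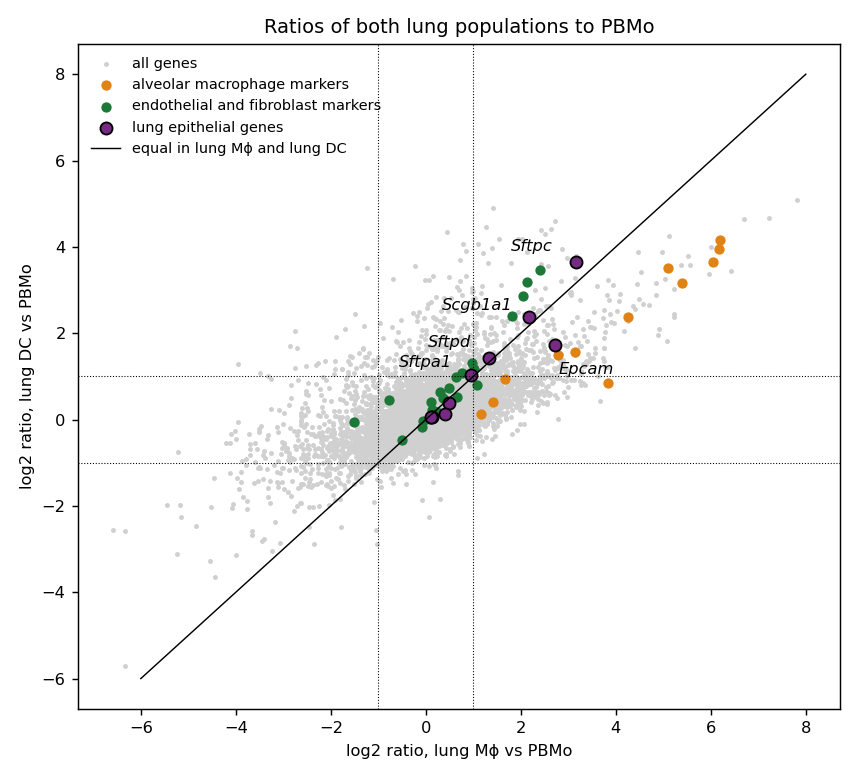
Log2 ratio Mϕ/PBMo (horizontal axis) and DC/PBMo (vertical axis) for all 19087 genes, with the 9 lung epithelial genes, 12 alveolar macrophage markers and 25 endothelial and fibroblast genes marked; the diagonal marks equal levels in lung Mϕ and lung DC, and dotted lines mark 2-fold. Sftpc, Scgb1a1, Sftpd and Sftpa1 lie just above the diagonal, and Epcam lies below it on the side of the alveolar macrophage markers.

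**Figure D4:**
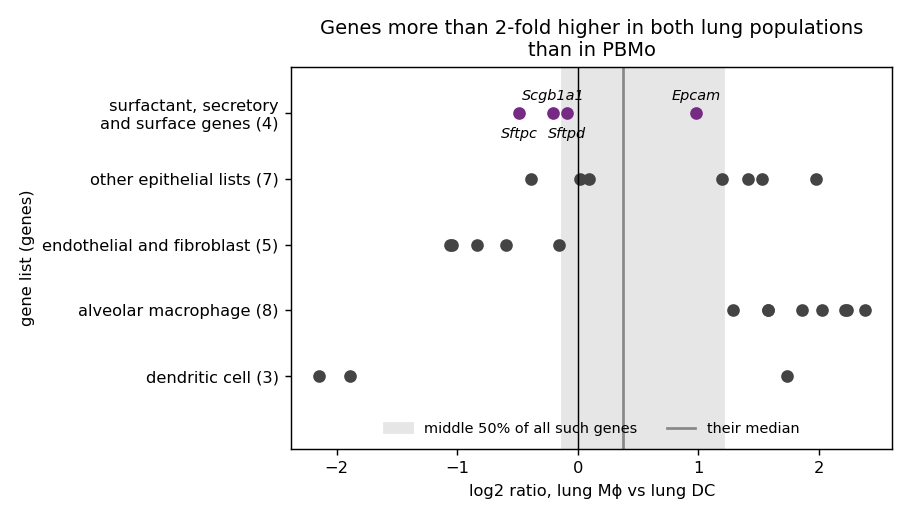
Log2 ratio Mϕ/DC (horizontal axis) of genes more than 2-fold above PBMo in both lung populations, by gene list (vertical axis, number of genes in brackets); the band is the middle 50% of all 423 such genes and the grey line their median of 0.38. Epcam, at 0.98, stands apart from Sftpd, Scgb1a1 and Sftpc, which lie from -0.48 to -0.09.

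Genes for the uptake and breakdown of surfactant favoured lung Mϕ where the lung populations differed. Of 14 such genes, 7 had a Mϕ/PBMo ratio above 1, against 5.47% of all genes, and 1 under -1. For DC/PBMo, 5 were above 1, against 4.02% of all genes, and 1 under -1. For Mϕ/DC, 5 were above 1, against 2.74% of all genes, and none under -1. The gene under -1 was Msr1, at -2.04 for Mϕ/PBMo and -1.97 for DC/PBMo. Marco, a scavenger receptor, had 6.19 for Mϕ/PBMo, 4.16 for DC/PBMo and 2.03 for Mϕ/DC. It and Pparg, another of the 14, were also on the list of alveolar macrophage markers. Abcg1, which exports cholesterol, had 4.88, 1.97 and 2.91, and Pla2g15, a lysosomal phospholipase that degrades surfactant lipid, had 2.72, 1.14 and 1.58. Sftpc and Sftpd, with Mϕ/DC ratios of -0.48 and -0.09, stood on the other side of 0, as did Csf2ra at -0.10 and Msr1 at -0.07 among the 14.

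The genes nearest to each of the 4 members with the largest ratios were taken by the Euclidean distance over the 3 ratios, of which only 2 are independent. Nearest to Sftpc were Plxdc2, a plexin-domain membrane protein, at a distance of 0.20, Gadd45b, a gene of the stress response, at 0.36 and Emp1, a membrane protein, at 0.49. Nearest to Scgb1a1 were Retnla, a secreted resistin-like protein of alternatively activated macrophages and airway epithelium, at 0.17, Prim1, a subunit of DNA primase, at 0.21 and N4bp3 at 0.22. Nearest to Epcam were P2ry14, a receptor of nucleotide sugars, at 0.07, Tmsb15l at 0.09 and Shtn1 at 0.13. Nearest to Sftpd were Nop58, a protein of small nucleolar particles, at 0.06 and, both at 0.10, Serpinb6c and Ifnb1, which encodes interferon beta.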

How the data were processed

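Amplified RNA of the pools had been hybridized in pairs, with balanced dyes, to Agilent mouse whole genome arrays. The authors scanned the arrays with GenePix, subtracted local background after Edwards with an offset, normalized by LOESS and fitted a linear model with limma, and the deposited log2 ratios are its contrasts, 1 per spot and comparison. The ratios were used as deposited. Of 45220 spots, 33653 carried a probe with 1 gene symbol, 56 a probe with several, and 11511 were not listed in the annotation. The rows were not in the annotation's order, and their layout was chosen from 32 interleaved ones as that in which probes of a transcript agreed best. The share of variance between transcripts was 0.907 in this layout and 0.413 in the next. Chosen again on 2950 transcripts, the same layout gave 0.919 on the 2949 left out. A gene is the mean of its probes. The members and gene lists were chosen with earlier results of these data known. The named genes were all members, up to 4 genes of each list by size of ratio, and the nearest 3 genes of 4 members. Abca3, Slc34a2, Aqp5, Krt7, Krt8, Krt18, Dcn, Lum, Nkx2-1, Foxa2, Cd9, Psap and others of lower rank were added for their role after their values were seen. With no replicate values, no test was run, and the number of pools and arrays limits the precision. Alternatives were the median or the most extreme probe of a gene, columns centred on their medians, and limits of 1.5-fold and 4-fold. The computation was tested on simulated data. Python 3.11.15, numpy 2.4.6, pandas 2.3.3 and matplotlib 3.10.9 were used.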

Additional observations from a re-analysis of the deposited data

How the results depend on the processing

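No paired analysis was possible because each comparison has a single fitted value per spot. Of 42 alternative values of the counts and medians of the members, 37 stayed within 1.5 times the count or within the probe SD of the median. Those with the median of the probes or with centred columns could hardly have moved, for the reasons given below for single members. Nor could a count of 0 have risen at the 4-fold limit. With the most extreme probe of each gene, the median of the 9 genes was 1.33 for Mϕ/PBMo and 1.42 for DC/PBMo. Without Sftpa1, a setting chosen after seeing the data, it was 0.90 for DC/PBMo. At 4-fold, 2 of the 9 genes had a higher DC/PBMo level, Sftpc and Scgb1a1, against 1.09% of all genes. At 1.5-fold, 1 of the 9 had a higher Mϕ/DC level, Epcam, against 7.15% of all genes. Of 81 alternative values of single members, 78 moved by less than the probe SD, and the other 3 were those of Sftpa1 with the most extreme probe. The 78 could hardly have moved. Every member but Sftpa1 had 1 probe, whose median and extreme equal its mean, and the median of the 2 Sftpa1 probes is their mean. Centring shifted the ratios only by the column medians, -0.0025 for Mϕ/PBMo, -0.0050 for DC/PBMo and 0.0051 for Mϕ/DC. The signal of the spots over background, which sets how small a ratio can be read, was not analysed here.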

Other observations

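Relatives of the lung epithelial genes by family, taken whole by symbol after the data were seen, were mostly near the level of PBMo. None of 8 other secretoglobin genes was past 2-fold, with log2 ratios from -0.05 to 0.04 in lung Mϕ and from -0.02 to 0.05 in lung DC against PBMo. Of 20 other claudin genes, none was under -1. Above 1 were 2 for Mϕ/PBMo, against 5.47% of all genes, and 3 for DC/PBMo, against 4.02% of all genes. These were the endothelial claudin Cldn5, at 1.81 in lung Mϕ and 2.40 in lung DC, Cldn1, at 1.48 and 1.83, and, in lung DC alone past the limit, Cldn7, at 0.92 in lung Mϕ and 1.20 in lung DC.

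Of 10 relatives of the surfactant proteins among collectins, saposins and BRICHOS proteins, Colec12, a scavenger receptor with a collectin domain, was higher in lung Mϕ, with a Mϕ/PBMo ratio of 1.03 and a Mϕ/DC ratio of 1.21. Itm2a, a BRICHOS membrane protein, had a Mϕ/DC ratio of -1.63. Psap, the precursor of the saposins, to which surfactant protein B is related, had -0.51 in lung Mϕ and -0.30 in lung DC against PBMo. Of 4 ligands of the receptor that Ager encodes, S100a8 and S100a9, calcium-binding proteins of neutrophils and monocytes, were lower than in PBMo, at -2.35 and -5.24 in lung Mϕ and at -2.88 and -3.11 in lung DC. S100b and Hmgb1 were within 2-fold.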
